A study of Mus musculus with 33 samples.

Results

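The comparison set untreated cells of the mouse line OKMS6 against mouse embryonic fibroblasts (MEFs), the kind of cell the line was made from. It used 12 of the 33 arrays of the series, chosen by their labels: 9 untreated OKMS6 arrays, 3 each at 10, 24 and 48 h, and 3 arrays of untreated MEFs, for which no time is given. The OKMS6 value of a gene was the mean of the 3 group means. OKMS6 is labelled as a partially reprogrammed line derived from MEFs that had been transduced with virus, and viral Sox2 is the only modification that the labels spell out. The sources give neither the promoter that drives the viral gene nor the passage or strain of the cells. All OKMS6 values come from a single cell line, so a difference from MEFs can belong to this line or to partially reprogrammed cells in general, and these cannot be told apart. The labels describe growth on gelatin, with feeder fibroblasts in some cultures, in stem cell medium with 1 of 2 kinds of serum. Neither is assigned to single samples. The series as a whole asked how RepSox, an inhibitor of the TGF-beta type I receptor kinase, acts on such cells, and how an iPS line made with it stands to embryonic stem cells. 3 arrays of the untreated embryonic stem cell line R1 (R1 mES) are set beside the comparison as a reference level. Nothing states that replicates came from different cultures, and p-values therefore rest on the scatter of arrays within groups, some of which may be technical.

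Reprogramming with Oct4 (the product of Pou5f1), Sox2, Klf4 and c-Myc turns fibroblasts into pluripotent cells through steps that can stall. In the course of it cells lose the fibroblast programme of matrix, contractile and mesenchymal transcription factor genes, divide faster, take up epithelial adhesion and last of all switch on their own pluripotency network. Partially reprogrammed lines are colonies that grow stably with viral factors but without the full network, of which Nanog is a late member. TGF-beta signalling keeps mesenchymal genes on in fibroblasts and opposes the epithelial step.

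Levels below are log2 intensities after normalization, given for each of the 3 MEF arrays and as the lowest, median and highest of the 9 OKMS6 arrays. A probe counted as detected on an array at a detection p under 0.05. The 9 OKMS6 arrays were brighter before normalization, with mean signals of 194 to 327, than the MEF arrays at 94.9 to 102, while the share of probes detected was similar, 43.8% to 48.5% and 45.3% to 47.2%. Brightness moved with the groups, and its part in the differences was tested only through other scalings. Across the genes tested, the MEF group mean correlated with the OKMS6 means at 0.791 to 0.808 and with R1 at 0.795. The OKMS6 means correlated with R1 at 0.875 to 0.878. The authors' series matrix names replicate 3 of untreated and of RepSox-treated OKMS6 at 48 h the other way round from the scanner table. Under the scanner table's names, which were used, the untreated array correlated with the other 2 of its group at 0.9945. With the other 2 treated arrays it correlated at 0.9772, both over all probes. Without both of these arrays 7566 genes were called, against 7605 with them.

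OKMS6 cells differed from MEFs at most genes measured. Of 10503 genes tested, 7605 differed (72.4%). Of these, 4126 were higher in OKMS6 (39.3%) and 3479 were lower (33.1%), as shares of all genes tested, at an adjusted p under 0.05. A difference of at least 2-fold was called for 1731 higher (16.5%) and 1582 lower genes (15.1%). For 3320 of the higher genes (31.6%) and 2828 of the lower (26.9%) no MEF array overlapped an OKMS6 array. These shares are the background for every count below, since a list of any kind would hold many changed genes. The median difference over all genes was 0.05 on the log2 scale, with quartiles at -0.50 and 0.63. At one extreme, 416 genes were detected on all 9 OKMS6 arrays and on no MEF array. At the other, 481 genes were detected on all 3 MEF arrays and on no OKMS6 array. For a gene without a detected signal in the dimmer group, the fold is written as "at least" N-fold. Such a bound is set against the weakest signal that counted as detected on an array, or against the gene's own signal where that was higher. With median scaling in place of quantile normalization the median of all genes moved to 0.44 and the calls to 5855 higher and 1865 lower. Calls of at least 2-fold moved to 3568 higher and 835 lower.

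The genes of the reprogramming factors gave 3 different pictures. Pou5f1 and Myc were on in OKMS6 and not detected in MEFs, Klf4 differed between its probes, and Sox2 stayed near background. Pou5f1, the core pluripotency factor, read 4.27, 4.44 and 4.38 in MEFs and 11.29, 11.67 and 12.15 in OKMS6. It was at least 113-fold higher (adjusted p = 1.04e-26). R1 arrays read 11.48 to 11.76, and the difference of OKMS6 from R1 was -0.03 (adjusted p = 0.819). The other Pou5f1 probe was also detected on no MEF array, at 4.43 to 4.55, and read 10.61 to 10.97 in OKMS6. Myc, the oncogenic transcription factor that drives growth and ribosome production, read 4.38, 4.60 and 4.75 in MEFs against 8.83, 9.26 and 9.74 in OKMS6. It was detected on no MEF array and no R1 array, and was at least 21.5-fold higher than in MEFs (adjusted p = 2.89e-20) and at least 23.3-fold higher than in R1. The second Myc probe was detected on none of these 15 arrays.

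Klf4, a zinc finger factor that is also active in fibroblasts, had 3 probes. On the probe used for the gene it read 6.27, 6.22 and 6.32 in MEFs and 9.68, 10.18 and 10.82 in OKMS6, a 14.8-fold rise (adjusted p = 6.49e-19). A further probe rose by 3.43. The third probe read 7.94 to 8.06 in MEFs and 8.06 to 8.51 in R1, but 4.30 to 4.96 in OKMS6, where it was detected on 1 of 9 arrays. Of 155 named genes with at least 2 detected probes, Klf4 was the only one with a probe more than 2-fold higher and another more than 2-fold lower. The sources do not place the probes within the transcript, and the share of viral and cellular transcripts in these readings was not tested. Sox2, the partner of Oct4, read 4.67, 4.51 and 4.63 in MEFs and 4.45, 4.70 and 5.08 in OKMS6, against 7.73 to 8.15 in R1. Its difference of 0.13 from MEFs did not pass the test (adjusted p = 0.298), and its second probe was detected on no MEF or OKMS6 array. The labels name viral Sox2 for these cells, and whether either Sox2 probe can read a viral transcript was not tested.

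**Figure D1:**
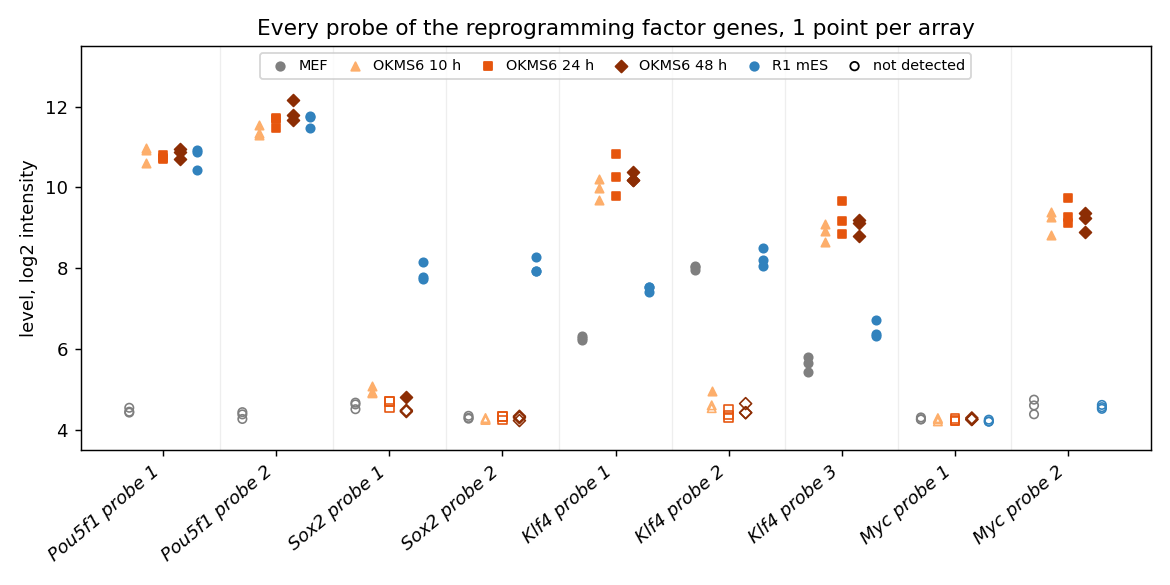
Level of every probe of the 4 factor genes on each array (y axis, log2 intensity). Points are single arrays of MEF, OKMS6 at 3 times and R1 mES, and hollow points were not detected. Klf4 probe 2 is high in MEF and R1 mES and near 4.5 in OKMS6, while the other Klf4 probes are highest in OKMS6.

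The largest rises were led by an amino acid transporter and an X-linked homeobox gene. Slc38a5, which carries glutamine and other small neutral amino acids, read 4.28, 4.29 and 4.31 in MEFs and 13.36, 13.47 and 13.67 in OKMS6. It was at least 410.5-fold higher (adjusted p = 1.05e-32). R1 arrays read 4.56 to 4.71, so it was high in neither reference cell type. Rhox5, a homeobox gene known from the germline and placenta, went from 4.68, 4.71 and 4.90 to 12.15, 12.35 and 12.65, a 199.7-fold rise (adjusted p = 1.8e-29), with R1 between them at 9.62 to 10.12. On MEF replicates 1 and 2 it lay below the weakest detected signal, 4.85 and 4.81, so this fold rests in part on background readings. Atp2a3, a calcium pump of the endoplasmic reticulum, was at least 123-fold higher (4.31, 4.52 and 4.37 against 11.46, 11.62 and 12.23) and reached 6.63 to 7.11 in R1. No MEF array overlapped an OKMS6 array for any of these 3 genes.

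Other members of the 15 largest rises fell into those shared with R1 and those not. Fbxo15, an F-box gene known as an Oct4 and Sox2 target, was at least 94.7-fold higher in OKMS6 and read 10.95 to 12.04 there, close to 11.75 to 11.9997 in R1. L1td1, an RNA-binding protein of stem cells, was at least 63.4-fold higher and read 10.54 to 10.96, above R1 at 9.42 to 9.68. Nup210, a nuclear pore protein that is regulated in development, was at least 55.8-fold higher and read 10.45 to 10.72 against 8.18 to 8.54 in R1. Gstp2, a glutathione transferase gene with a near-identical neighbour whose transcripts its probe may share, was at least 45.5-fold higher. Nccrp1, Lrmp and Gkn1 were high in OKMS6 and low in both MEFs and R1. Nccrp1, an F-box-associated protein, read 10.08, 10.66 and 10.93 in OKMS6, 4.27 to 4.34 in MEFs and 4.69 to 4.90 in R1. Lrmp, a membrane protein known from lymphocytes, read 9.18, 10.25 and 11.001 against 4.49 to 4.54 and 5.15 to 5.34. Gkn1, a secreted protein of the stomach lining, read 9.51, 9.96 and 10.48 against 4.42 to 4.60 and 4.68 to 4.95. Pou5f1 belongs to the 15 as well, and Urah, Fgfbp1, Gngt2 and Gna14 made up the rest, with folds from at least 29.8 for the G protein subunit Gna14 to 88.8 for Urah, an enzyme of urate breakdown.

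The largest falls were led by Mgp, Lox and Loxl1. Mgp, the matrix Gla protein that restrains calcification, read 13.47, 13.32 and 13.34 in MEFs and 4.40, 4.49 and 4.61 in OKMS6, where it was detected on no array. It was at least 379-fold lower (adjusted p = 1.13e-27). Lox, the enzyme that crosslinks collagen and elastin, read 12.93, 13.03 and 13.07 in MEFs and 4.77, 5.20 and 6.32 in OKMS6, 194-fold lower (adjusted p = 2.45e-28). Igf2, an imprinted growth factor of the embryo, read 13.56, 13.56 and 13.68 in MEFs and 5.61, 5.85 and 6.75 in OKMS6, 181-fold lower (adjusted p = 2.61e-29). No MEF array overlapped an OKMS6 array for these 3 genes. Serpinf1, an antiangiogenic serpin, was 190.4-fold lower (12.26, 12.30 and 12.37 against 4.38, 4.68 and 5.26). Fhl1, a LIM domain protein of muscle and fibroblasts, was 188-fold lower (12.62, 12.64 and 12.43 against 4.34, 4.73 and 5.98). Cxcl12, a chemokine made by stromal cells, was 155-fold lower (12.17, 12.18 and 12.15 against 4.55, 4.92 and 5.17). Ogn and Ptn were detected on no OKMS6 array and were at least 101-fold and at least 81.2-fold lower. Loxl1, Epb41l3, Bgn, Col5a1, Igfbp7, Timp2 and Dkk3 made up the rest. The 5 of them other than Loxl1, a second crosslinking enzyme, and Dkk3, a secreted Wnt modulator, were 110.3-fold to 133-fold lower. Loxl1 and Dkk3 were each detected on 1 of 9 OKMS6 arrays, so their folds of 192 and 106 were taken against readings mostly at background. Serpinf1 was detected on 3 of the 9, Fhl1 on 4, Cxcl12 on 6 and Epb41l3 on 7, and their folds rest in part on such readings too. R1 arrays stood between MEFs and OKMS6 for 14 of these 15 genes, for example at 8.17 to 8.63 for Mgp, while Ptn was detected on no R1 array. Whether feeder fibroblasts add to the R1 readings was not tested. In OKMS6, Col1a1, Col1a2 and Col3a1, which fibroblasts make in quantity, were detected on none of 9 arrays.

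**Figure D2:**
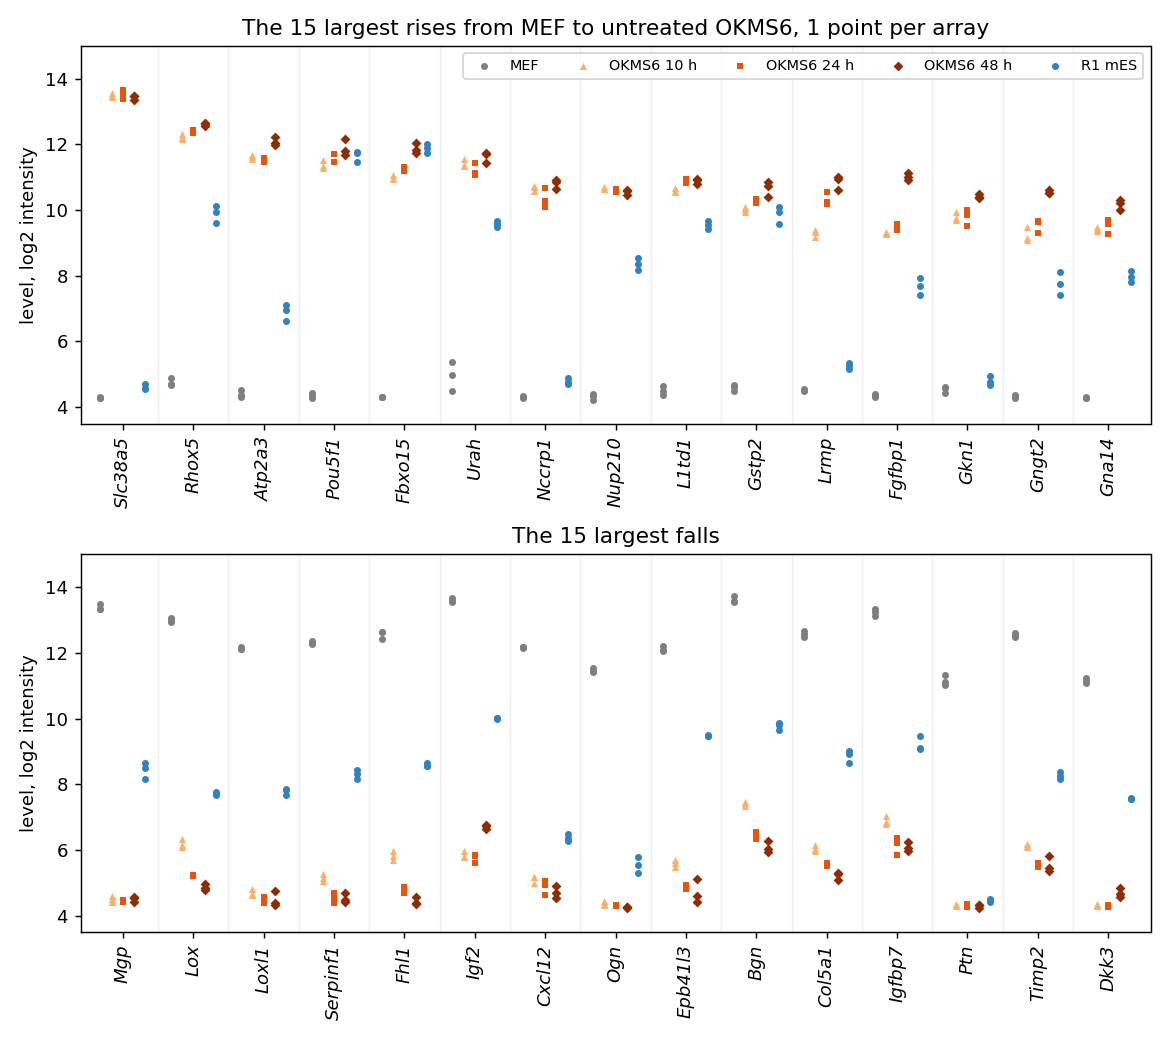
Level on each array (y axis, log2 intensity) of the 15 largest rises (top) and falls (bottom) that met the naming rule. MEF points lie near 4 to 5 in the upper panel and at 11 to 14 in the lower panel, and R1 mES points lie between the 2 cell types for most falls.

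Promoters are shown for the 2 largest rises and the 2 largest falls that have an entry in the RefSeq promoter table (GRCm38.p6), so that the genes at the extremes can be seen. Each is 300 bases around the annotated start, read 5′ to 3′ on the gene's strand, with CG dinucleotides in capitals. Slc38a5 lies at chrX:8271131-8271430 (plus strand, 10 CG), Rhox5 at chrX:37754358-37754657 (plus strand, 5 CG), Serpinf1 at chr11:75422574-75422873 (minus strand, 3 CG) and Fhl1 at chrX:56779433-56779732 (plus strand, 3 CG).
Slc38a5: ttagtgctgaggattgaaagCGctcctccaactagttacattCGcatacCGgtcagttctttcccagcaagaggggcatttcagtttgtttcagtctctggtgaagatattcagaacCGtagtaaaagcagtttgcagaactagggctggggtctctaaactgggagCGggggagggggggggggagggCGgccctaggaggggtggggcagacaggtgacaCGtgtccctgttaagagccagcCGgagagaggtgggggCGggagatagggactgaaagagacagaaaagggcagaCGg
Rhox5: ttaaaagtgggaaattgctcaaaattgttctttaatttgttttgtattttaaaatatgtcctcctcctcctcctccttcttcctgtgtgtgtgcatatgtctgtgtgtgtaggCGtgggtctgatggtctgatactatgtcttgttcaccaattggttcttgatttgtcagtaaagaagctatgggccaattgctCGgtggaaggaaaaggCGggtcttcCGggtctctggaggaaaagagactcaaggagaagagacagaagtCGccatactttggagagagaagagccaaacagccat
Serpinf1: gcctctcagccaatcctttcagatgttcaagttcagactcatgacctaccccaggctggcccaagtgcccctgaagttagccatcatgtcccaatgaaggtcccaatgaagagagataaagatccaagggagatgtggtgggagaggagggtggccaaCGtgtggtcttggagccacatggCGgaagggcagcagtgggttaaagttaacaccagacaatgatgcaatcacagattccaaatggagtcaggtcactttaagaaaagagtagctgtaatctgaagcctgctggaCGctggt
Fhl1: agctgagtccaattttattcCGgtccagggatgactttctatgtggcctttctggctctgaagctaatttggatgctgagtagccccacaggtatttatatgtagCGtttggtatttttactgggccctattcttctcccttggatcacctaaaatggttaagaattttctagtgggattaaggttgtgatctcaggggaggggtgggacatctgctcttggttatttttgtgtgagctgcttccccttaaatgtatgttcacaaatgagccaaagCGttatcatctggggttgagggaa
All 4 held fewer CG dinucleotides than the median of 20 over the 8478 tested genes with an entry. Over the 1405 genes with an entry that rose at least 2-fold the median was 21, and over the 1248 that fell at least 2-fold it was 19. Promoters with 5 or fewer CG dinucleotides made up 7.97% of the rising, 13.6% of the falling and 12.6% of all tested genes. The letters CACGTG, which Myc and related factors can bind and which read the same on both strands, occur in the Slc38a5 window and in 12% of rising, 9.29% of falling and 9.97% of all tested promoters. The letters TATAAA, on either strand, occur in the Fhl1 window and in 7.26%, 11% and 8.24%. These shares describe letters in a window and were not tested. Methylation was not measured in these samples.

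The pluripotency list was split within itself. Of 34 measured genes, 15 rose, 4 fell and 15 were not called, and 10 rose at least 2-fold. Of all genes, 39.3% rose, 33.1% fell and 16.5% rose at least 2-fold. Its median difference from MEFs was 0.07 above that of all genes, and with median scaling it was -0.38. With only the MEF and OKMS6 arrays fitted and filtered it was 0.64. Of the 34 genes, 11 were detected on no MEF or OKMS6 array. The list median therefore depends on the scaling and on whether such genes are kept. Against R1, 30 of the 34 were lower in OKMS6, 3 were higher, and the median difference was -3.65, where 31.2% of all genes were lower, 34.5% were higher and 65.7% differed. The 11 undetected genes passed the detection filter only through other arrays, R1 among them, so this count was partly set in advance. The 10 that rose at least 2-fold were Pou5f1, Fbxo15, L1td1, Sall4, Klf4 on the probe used, Gdf3, Tdgf1, Slc2a3, Klf5 and Fgf4. Sall4, a zinc finger partner of Oct4, read 4.52, 4.48 and 4.67 in MEFs and 8.66, 8.73 and 8.92 in OKMS6, at least 15.5-fold higher, with R1 at 10.09 to 10.44. Gdf3, a TGF-beta family ligand of stem cells, read 4.29, 4.31 and 4.34 against 7.62, 7.78 and 8.04, at least 7.96-fold higher. Tdgf1, the Nodal co-receptor Cripto, read 4.33, 4.31 and 4.36 against 6.52, 7.11 and 8.80, at least 6.27-fold higher. All 3 stayed below R1 (adjusted p at most 4.2e-12).

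Other members did not differ from MEFs or were lower. Nanog, the homeobox factor that marks the fully pluripotent state, read 4.41, 4.64 and 4.45 in MEFs and 4.29, 4.48 and 4.92 in OKMS6, against 11.50 to 11.70 in R1. Its difference of 0.05 from MEFs did not pass the test (adjusted p = 0.653). Esrrb, an orphan nuclear receptor of the same network, was detected on no MEF or OKMS6 array and was at least 107-fold lower than in R1. Dppa4, a chromatin-binding protein of early embryos, was also detected on neither and was at least 137-fold lower than in R1. Dppa5a, an RNA-binding protein and the brightest gene of the list in R1 at 13.75 to 13.91, read 4.42, 4.61 and 5.09 in OKMS6. In all, 14 of the 34 genes were detected on no OKMS6 array and 26 on no MEF array. For all 10503 genes tested these counts were 1142 and 1852. The 4 genes that fell are ones that MEFs also express. Klf2, a Klf4 relative, read 8.02, 7.999 and 7.84 in MEFs and 4.59, 5.23 and 5.50 in OKMS6, 7.22-fold lower (adjusted p = 4.42e-20). It was at 9.33 to 9.71 in R1. Its lowest OKMS6 reading lay below the weakest detected signal of any OKMS6 array, 4.71, so the fold rests in part on background. Jam2, an adhesion molecule, and the T-box factor Tbx3 were detected on no OKMS6 array and were at least 3.65-fold and at least 2.43-fold lower than in MEFs. Lefty1, a Nodal antagonist, was at least 1.26-fold lower.

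**Figure D3:**
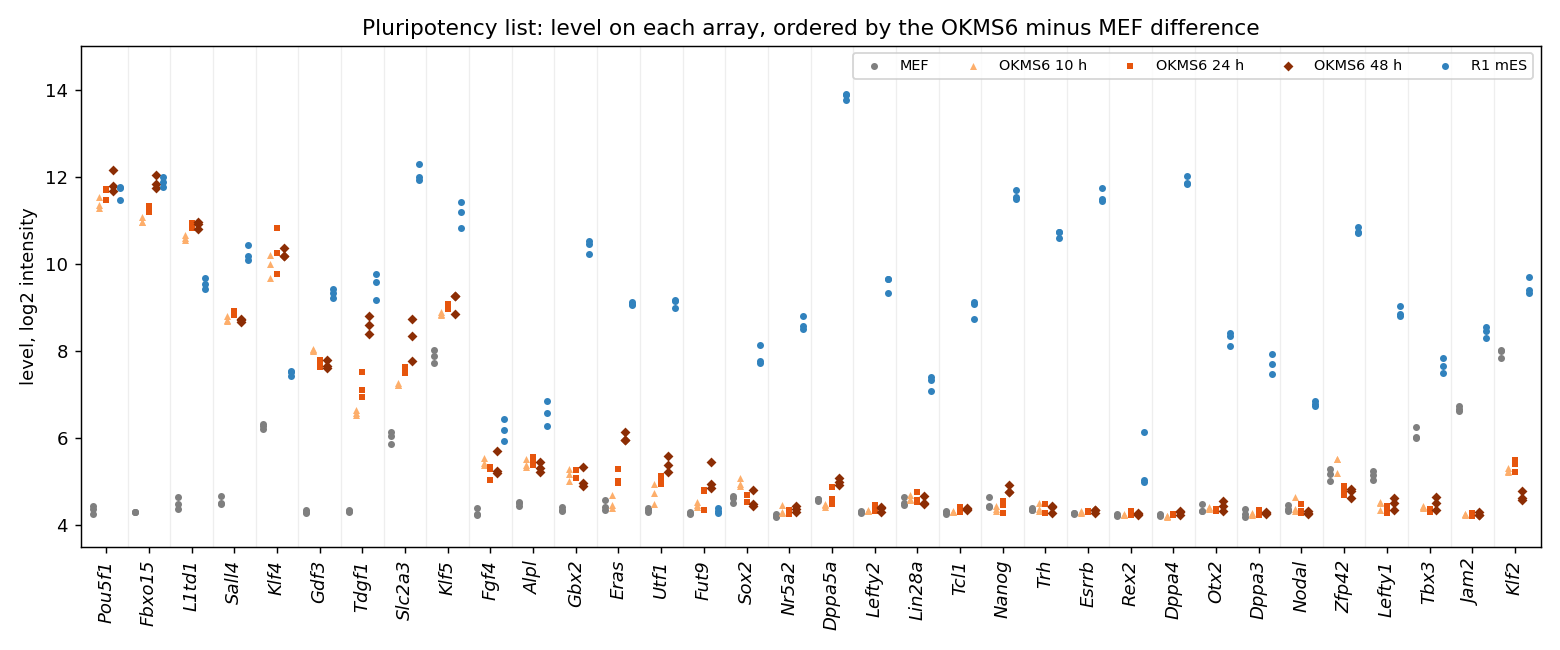
Level on each array (y axis, log2 intensity) of the 34 measured genes of the pluripotency list, ordered by the difference between OKMS6 and MEF. From Sox2 rightward the OKMS6 points lie near background or at the MEF level or lower, and R1 mES points lie above them.

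Epithelial genes were raised in part. Of 24 measured, 14 rose, 1 fell and 9 were not called, and 7 rose at least 2-fold. The shares over all genes were 39.3% for rises, 33.1% for falls and 16.5% for rises of at least 2-fold. The median stood 0.20 above that of all genes and, with median scaling, -0.25 from it. With only the MEF and OKMS6 arrays fitted and filtered it stood 0.85 above. Of the 24 genes, 8 were detected on no MEF or OKMS6 array, and the median depends on whether such genes are kept. Cdh1, the adhesion molecule E-cadherin, read 4.46, 4.40 and 4.41 in MEFs and 5.63, 6.06 and 6.87 in OKMS6, at least 2.69-fold higher (adjusted p = 4.24e-14). R1 read 9.32 to 9.54, and OKMS6 was lower than R1 by -3.20. Esrp1, an epithelial splicing regulator, went from 4.24, 4.28 and 4.27 to 5.62, 6.17 and 7.24, at least 2.75-fold higher. Ovol2, a repressor of mesenchymal genes, read 4.52 to 4.62 in MEFs, 5.95, 6.28 and 6.62 in OKMS6 and 5.14 to 5.49 in R1, so it was above both. Krt8, a simple epithelial keratin, rose 2.56-fold, while its partner Krt18 was detected on no MEF or OKMS6 array and read 9.51 to 9.82 in R1. The tight junction gene Cldn6 was likewise detected on no array of either group and read 9.68 to 9.76 in R1. Compared with R1, 18 of the 24 were lower and 4 were higher, where 31.2% of all genes were lower and 34.5% higher. The 8 undetected genes passed the detection filter only through other arrays, R1 among them, so this count was partly set in advance.

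Integrins changed in both directions, 6 up and 7 down of 13, where 39.3% of all genes rose and 33.1% fell. Itgb4, the beta chain of the laminin receptor of epithelial hemidesmosomes, read 6.01, 5.77 and 6.17 in MEFs and 10.01, 10.38 and 11.05 in OKMS6, higher by 4.46 on the log2 scale (adjusted p = 1.42e-19), and above R1 by 3.26. Itga3, a laminin-binding alpha chain, rose 5.09-fold. Itga11, a collagen receptor chain of fibroblasts, read 10.76, 10.79 and 10.96 against 4.60, 5.10 and 5.65, 54.7-fold lower. Its lowest OKMS6 reading lay below the weakest detected signal of any OKMS6 array, 4.71, so this fold rests in part on background. Itgb1, the chain shared by most of these receptors, was 4.40-fold lower. For Itgb4 and Itga11 the MEF and OKMS6 arrays did not overlap.

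The matrix genes fell almost without exception. All 16 collagens measured were lower in OKMS6, 13 of them at least 2-fold, where 33.1% of all genes were lower. Their median difference was -4.50, and -4.08 with genes not detected in OKMS6 set to their bound. Col1a1 and Col3a1, the main fibrillar collagens of connective tissue, were at least 53.6-fold and at least 57.0-fold lower. Col5a1, which starts collagen fibrils, read 12.49, 12.58 and 12.66 in MEFs and 5.09, 5.54 and 6.15 in OKMS6, 126-fold lower. Col4a2, of basement membranes, was at least 52.2-fold lower than in MEFs and read 9.13 to 9.29 in R1. Col18a1, the collagen that gives rise to endostatin, fell least of the 3 detected on all 12 arrays, from 9.26, 9.49 and 9.64 to 6.58, 7.13 and 9.33. Of 46 other matrix genes, 43 fell, 41 of them at least 2-fold, and none rose, with a median of -3.14. Bgn, the proteoglycan biglycan, was 126-fold lower. Thbs2, an antiangiogenic thrombospondin, was detected on no OKMS6 array and was at least 63.2-fold lower. The protease inhibitor Timp1 stayed bright, at 13.32, 13.38 and 13.25 in MEFs and 11.60, 12.15 and 12.27 in OKMS6, a fall of 1.27 on the log2 scale.

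Contractile genes and TGF-beta targets fell beside them. Of 21 contractile genes 18 fell and 2 rose, with a median of -2.89. Acta2, smooth muscle actin, read 13.85, 13.79 and 13.88 in MEFs and 8.12, 9.10 and 10.56 in OKMS6, 23.8-fold lower (adjusted p = 2.62e-24). On the log2 scale that probe differed by -4.57. Its other probes, detected on all 12 arrays, fell further, by -6.79, -6.64 and -6.56. Tpm1, a tropomyosin of stress fibres, was 9.32-fold lower. Myocd, a coactivator that turns on smooth muscle genes, went the other way, from 6.32, 6.46 and 6.19 to 7.73, 8.66 and 8.74, 4.20-fold higher (adjusted p = 1.68e-13). Of 16 TGF-beta ligands, receptors and targets 14 fell and 1 rose, with a median of -1.78. Ccn2, the connective tissue growth factor and a strong TGF-beta target, read 13.79, 13.76 and 13.56 in MEFs and 6.59, 6.87 and 8.75 in OKMS6, 80.1-fold lower (adjusted p = 1.57e-25). Inhba, the activin A subunit, was 65.8-fold lower. The receptor Tgfbr2, which binds the ligand, fell by 1.18 and was detected on all arrays of both groups. Bhlhe40, a repressor that responds to many signals, rose by 0.87.

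Fibroblast identity genes were lower as well. Of 24 mesenchymal transcription factors 21 fell, 16 of them at least 2-fold, 2 rose, and the median was -2.35. Zeb2, a repressor of E-cadherin, read 9.23, 9.30 and 8.99 in MEFs and 4.60, 4.69 and 5.31 in OKMS6, 20.5-fold lower, with 2 of 9 OKMS6 arrays detected. Its relative Zeb1 kept a higher level, from 9.74, 9.65 and 9.72 to 7.84, 8.02 and 8.21, 3.20-fold lower. Twist2, a mesenchymal basic helix-loop-helix factor, was detected on no OKMS6 array and was at least 10.1-fold lower. Snai1, a further E-cadherin repressor, was 6.30-fold lower. Prrx1, a homeobox factor of limb mesenchyme, was 12.9-fold lower. Of 23 fibroblast surface and marker genes, all detected on at least 1 MEF array, 19 fell and 2 rose, with a median of -1.59. Thy1, a surface marker used to sort fibroblasts out of reprogramming cultures, read 11.59, 11.70 and 11.65 in MEFs and 6.42, 7.07 and 7.45 in OKMS6, 25.7-fold lower (adjusted p = 4.33e-22). Vim, the intermediate filament vimentin, kept a level of 9.29 to 10.47, 4.45-fold below MEFs. The rising members Cd44, a hyaluronan receptor, and Nt5e, an ectonucleotidase, changed by under 2-fold.

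Hox genes, which hold the position of a cell along the body, fell in 22 of 25 cases, 18 of them at least 2-fold, and none rose. The median was -1.76, and -1.34 with undetected genes at their bound. Hoxc6 read 10.17, 10.10 and 10.17 in MEFs and 4.45, 4.70 and 5.04 in OKMS6, 43.1-fold lower, with 3 of 9 OKMS6 arrays detected. Hoxd10 and Hoxb7 were detected on no OKMS6 array and were at least 14.03-fold and at least 9.59-fold lower. Hoxa5 and Hoxa7 were still detected on all 9 arrays, with OKMS6 medians of 6.47 and 7.10, and were 6.81-fold and 2.83-fold below MEFs. In all, 13 of the 25 were detected on no OKMS6 array, beside 1142 of all 10503 genes tested.

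Genes of DNA replication rose together. All 34 measured rose, 29 of them at least 2-fold, where 39.3% of all genes rose, and the median was 2.20. Mcm10, which is needed to start replication forks, read 6.56, 6.31 and 6.14 in MEFs and 9.55, 10.59 and 10.72 in OKMS6, 15.99-fold higher (adjusted p = 9.6e-21). Mcm5, a subunit of the replicative helicase, rose 10.5-fold from 7.94, 7.94 and 7.98 to 10.39, 11.66 and 11.79. Cdt1, which licenses origins, rose 9.22-fold. Pcna, the sliding clamp, was already bright in MEFs and rose by 0.86 on the log2 scale. Mitosis genes rose in 22 of 23 cases, with a median of 1.58, and Spc24 was not called. Top2a, the topoisomerase of dividing cells, read 7.42, 7.23 and 7.38 against 9.51, 10.13 and 10.98, 6.98-fold higher. Cdk1, the mitotic kinase, rose 4.21-fold. Against R1, 13 of the 34 replication genes were higher in OKMS6 and 9 were lower, with a median difference of 0.14. Over all genes 34.5% were higher than in R1 and 31.2% were lower.

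Genes activated by Myc and genes of ribosome biogenesis rose in 32 of 34 cases, 25 of them at least 2-fold, with a median of 1.66. Mthfd1, an enzyme of one-carbon metabolism, read 6.997, 7.03 and 6.97 in MEFs and 9.78, 9.98 and 10.48 in OKMS6, 8.16-fold higher. Rrp1b, a nucleolar protein, rose 7.63-fold. Fbl, the nucleolar methyltransferase fibrillarin, rose 4.42-fold. Pes1 was not called, with a difference of -0.01 (adjusted p = 0.938). Ccnd2, a cyclin of the G1 phase, was the only one that fell. It read 12.41, 12.47 and 12.45 in MEFs against 7.997, 8.51 and 9.32, 13.9-fold lower. Among Cdk inhibitors and p53 targets 7 rose and 12 fell of 23, with 0 rises of at least 2-fold. Over all genes 39.3% rose, 33.1% fell and 16.5% rose at least 2-fold. Cdkn2b, which encodes the inhibitor p15, read 10.89, 10.89 and 10.87 in MEFs and 6.28, 6.63 and 8.05 in OKMS6, 15.7-fold lower (adjusted p = 2.39e-21). Gadd45g, a stress gene that slows the cycle, was 13.2-fold lower. The neighbouring Cdkn2a, which encodes p16 and p19, differed by -0.91 on its brighter probe and by 0.08 on its other probe, so its direction depends on the probe.

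Chromatin genes rose in 23 of 34 cases, 15 of them at least 2-fold, and 5 fell. Over all genes 39.3% rose and 33.1% fell. Uhrf1, which brings the maintenance methyltransferase to replicated DNA, read 8.75, 8.73 and 8.73 in MEFs and 11.66, 11.95 and 12.13 in OKMS6, 9.14-fold higher (adjusted p = 6.86e-21). Dnmt1, that methyltransferase, rose 5.21-fold. Ezh2, the catalytic subunit of polycomb complex PRC2, rose 5.21-fold. Dnmt3b, a de novo methyltransferase, went from 5.28, 5.37 and 5.23 to 7.64, 8.27 and 8.49, 7.14-fold higher, and was lower than R1 by -2.56. Its cofactor Dnmt3l, which is on in stem cells and germ cells, was detected on no MEF or OKMS6 array. Kdm6b, a demethylase of the polycomb mark, and the PRC1 subunits Rnf2 and Bmi1 fell by under 2-fold, and with median scaling these 3 stood 0.063, 0.020 and 0.024 above MEFs and were not called.

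Imprinted genes mostly fell, 15 of 20, with 3 that rose and a median of -0.65. Beside Igf2, the receptor Igf2r, which clears that factor, was 4.11-fold lower. Dlk1, a Notch-like growth regulator, was detected on no OKMS6 array and was at least 13.9-fold lower. Ndn, the growth suppressor necdin, stayed bright at 9.18 to 9.59 and was 6.51-fold lower. Phlda2, a placental growth restrictor, rose at least 3.03-fold, from 4.36, 4.39 and 4.28 to 6.17, 6.32 and 6.71. Of 22 germline genes, Rhox5 included, 4 rose and 3 fell, beside 39.3% and 33.1% of all genes. Of these 22, 12 were detected on no OKMS6 array, 14 on no MEF array and 11 on neither. The 11 passed the detection filter only through other arrays. Over all 10503 genes tested, 1142 were detected on no OKMS6 array and 537 on neither. Tfap2c, a factor of germ cells and trophoblast, was at least 5.22-fold higher (4.33, 4.53 and 4.65 against 6.84, 7.18 and 7.38).

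Of 4 sex-linked genes 3 rose and 1 fell. Xist, the RNA that coats the inactive X chromosome, read 6.66, 6.76 and 7.06 in MEFs and was detected on no OKMS6 array (4.34, 4.47 and 4.55), at least 4.04-fold lower (adjusted p = 3.33e-19). The Y-linked genes Kdm5d and Eif2s3y were detected on all 12 arrays and rose 3.31-fold and 2.13-fold. The sources do not give the sex of the cells. Over genes detected on all 12 arrays, median differences by chromosome ran from -0.11 on chromosome X to 0.36 on chromosome 17.

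Of 24 chemokine, cytokine and complement genes 16 fell and 1 rose, with a median of -0.97. Over all genes 39.3% rose and 33.1% fell. Of the 24, 12 were detected on no OKMS6 array, 7 on no MEF array and 4 on neither. Ccl7, a monocyte attractant, read 10.95, 11.06 and 11.13 in MEFs, and was at least 75.3-fold lower in OKMS6. Il6 was at least 3.83-fold lower. Interferon-induced genes showed no common direction, with 7 up and 9 down of 24, beside the 39.3% and 33.1% of all genes. Ifi27 was 6.80-fold lower, and Bst2, the antiviral protein tetherin, was 2.55-fold higher. Of 11 genes of MHC class I presentation 3 rose and 5 fell. B2m, its light chain, read 12.39, 12.41 and 12.60 in MEFs and 9.95, 10.14 and 10.83 in OKMS6, 4.39-fold lower. Its partner in peptide loading Tap2, detected on 4 of 9 OKMS6 arrays, was 4.45-fold lower, while the proteasome subunit Psmb10 rose 2.64-fold.

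Of 19 genes of glycolysis and its regulation 10 rose and 1 fell, and the median was 0.19. The shares over all genes were 39.3% and 33.1%. Hk2, the hexokinase of fast-growing cells, read 9.59, 9.69 and 9.62 against 11.66, 11.9997 and 12.25, 5.16-fold higher (adjusted p = 1.22e-17). Vegfa, the angiogenic factor in the list, was 2.66-fold lower. Of 31 genes of mitochondrial respiration 20 rose and 2 fell, with a median of 0.37 and 4 rises of at least 2-fold. Tfam, which packages mitochondrial DNA, rose 3.18-fold. Among 14 housekeeping genes 9 rose and 4 fell, with a median of 0.33. Tfrc, the transferrin receptor, rose 7.52-fold, so it was no stable reference between these cells. Actb, cytoplasmic actin, gave differences from -0.66 to 1.46 on its 5 probes.

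**Figure D4:**
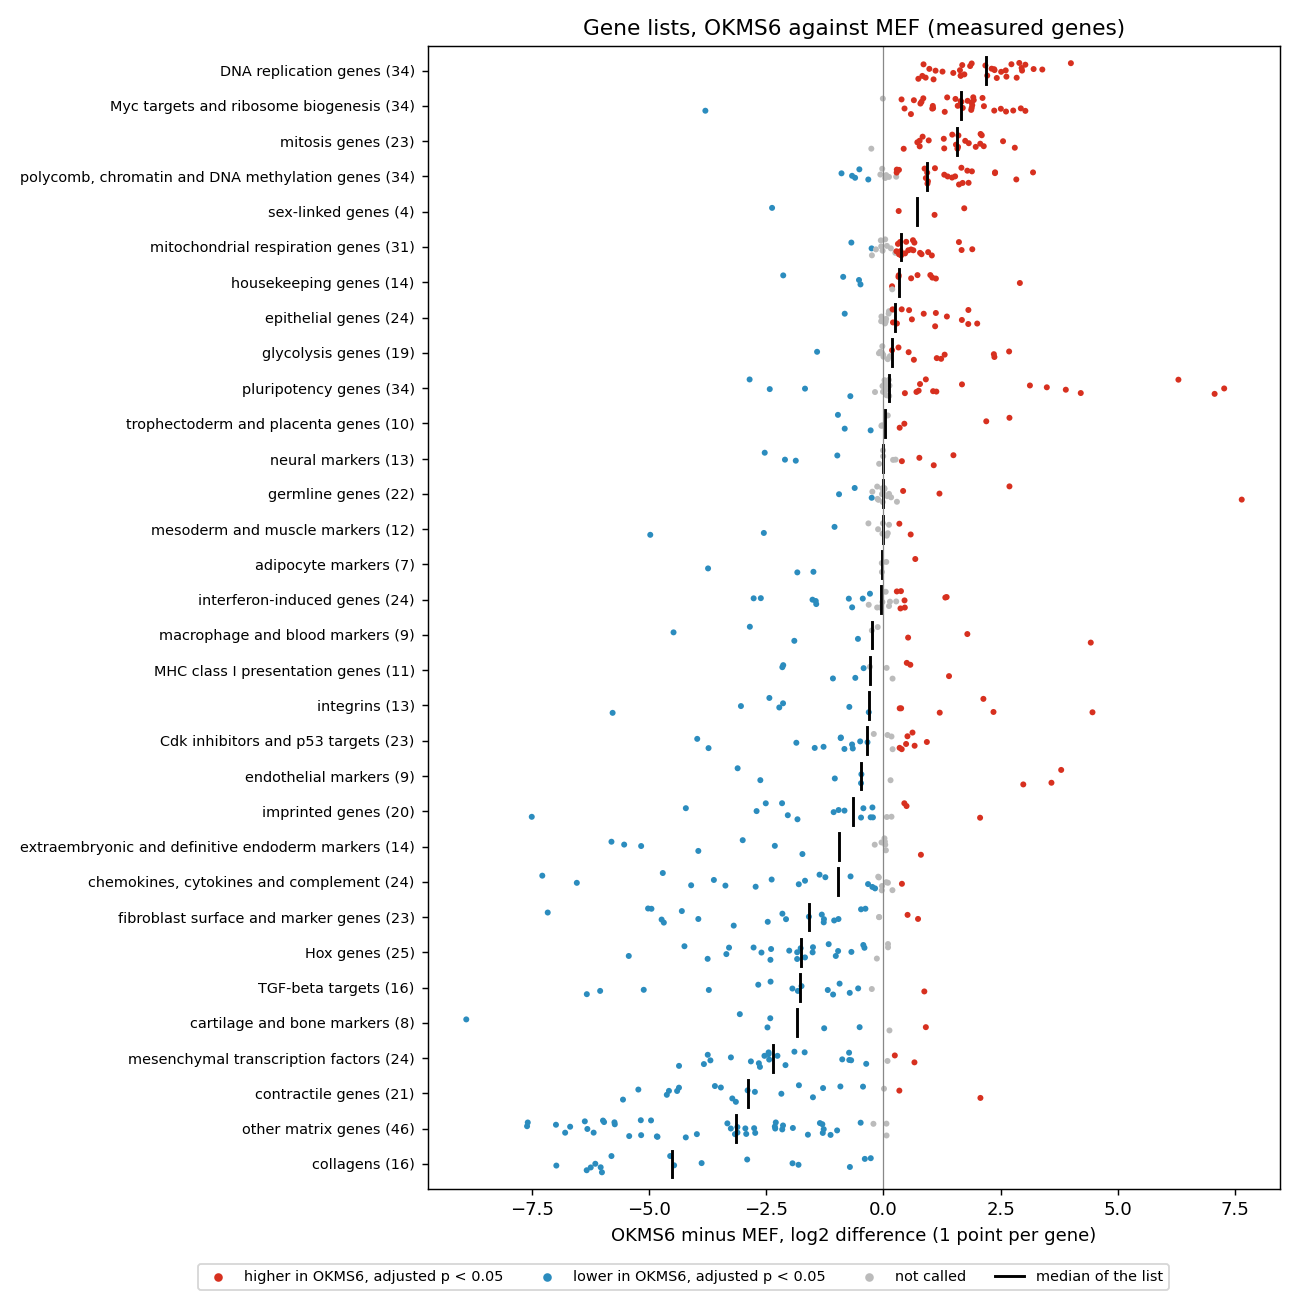
Log2 difference between untreated OKMS6 and MEF for each measured gene of 32 lists (x axis, 1 point per gene, coloured by call), with the list median as a black bar. Collagens have the lowest median, -4.50, and DNA replication genes the highest, 2.20.

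Markers of other cell types were checked in both groups. Over all genes 39.3% rose and 33.1% fell, which is the background for the counts here. Endoderm markers gave 7 falls and 1 rise of 14, and Sparc, Col4a1 and Pdgfra among the falls are also fibroblast genes. Gata6, a factor that specifies primitive endoderm, was at least 6.08-fold lower. Sox17, Gata4 and Hnf4a, which define endoderm more narrowly, were not called, with differences of 0.04, -0.18 and 0.03. Of 13 neural markers 4 rose and 4 fell. Of 10 trophectoderm and placenta genes 4 rose and 3 fell, and of 8 cartilage and bone markers 1 rose and 6 fell. Of 12 mesoderm and muscle markers 2 rose and 3 fell, with 8 detected on no OKMS6 array, 5 on no MEF array and 4 on neither. Of 9 macrophage and blood markers 3 rose and 4 fell. Lyz1 and Lyz2, lysozymes of macrophages, read 8.59, 8.88 and 9.28 and 6.81, 7.05 and 7.53 in MEFs and were detected on no OKMS6 array, at least 17.3-fold and at least 4.99-fold lower. The leukocyte gene Cd53 was at least 2.61-fold lower. Laptm5, a lysosomal protein of leukocytes that R1 also expressed, rose 21.4-fold, from 4.73, 6.19 and 6.61 to 9.77, 10.16 and 10.83. Fewer cells of a type and less RNA per cell cannot be told apart in these bulk samples. Of 9 endothelial markers 3 rose and 5 fell. Pecam1, an adhesion molecule that stem cells also carry, read 4.39, 4.35 and 4.39 in MEFs and 7.82, 8.10 and 8.72 in OKMS6, at least 10.3-fold higher, above R1 by 2.11. Esam, a relative at cell junctions, was at least 10.1-fold higher, and Tek, the angiopoietin receptor, rose 7.91-fold. Flt1, a VEGF receptor, was 8.62-fold lower, with 3 of 9 OKMS6 arrays detected. Of 7 adipocyte genes 1 rose, and the 3 that fell were Lpl, Pparg and Cebpb, and Adipoq and Plin1 were not called.

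The comparisons with MEFs at 10, 24 and 48 h share the MEF arrays and are set side by side. At 10 h 7176 genes were called (68.3%), of which the higher made up 36.9% of all genes and the lower 31.4%. At 24 h 7328 were called (69.8%), 37.3% higher and 32.5% lower. At 48 h 7115 were called (67.7%), 36.8% higher and 30.9% lower. At all 3 times 2998 genes rose and 2600 fell, while 180 genes were called in opposite directions at 2 times. Untreated OKMS6 cells differed between times at 4764 genes (45.4%), a count that was 2125 with all 30 arrays in the fit and 2972 with the series matrix. What the times mean for untreated cells is not given. Slc38a5 levels lay between 13.36 and 13.67 on all 9 arrays, and the test between times did not call it (adjusted p = 0.659).

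Some members moved between times. Aldoc, a glycolytic aldolase detected on no MEF array, had mean levels of 4.92, 6.77 and 8.65 at 10, 24 and 48 h (adjusted p between times = 2.6e-15). Tdgf1, also detected on no MEF array, had mean levels of 6.58, 7.19 and 8.60 (1.42e-08). Egln3, an oxygen-sensing enzyme in the glycolysis list, was 1.4995, 2.87 and 3.67 above MEFs on the log2 scale (5.59e-09). These 3 were highest at 48 h. Acta2 was -3.33, -4.74 and -5.64 from MEFs (1.64e-13), and Lox -6.83, -7.80 and -8.16 (7.55e-09), so both were lowest at 48 h. Col18a1 went the other way, at -2.80, -2.26 and -0.36 (2.6e-12). The replication gene Mcm5 was 3.78, 3.70 and 2.69 above (2.76e-08) and the mitotic kinase Aurka 2.37, 2.40 and 1.14 (1.44e-09). Krt19, a keratin detected on 1 of 3 MEF and 5 of 9 OKMS6 arrays, had mean levels of 4.39, 4.96 and 6.81 (5.97e-09).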

How the data were processed

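RNA was extracted with Trizol and hybridised as biotin-labelled cRNA to 1-colour Illumina mouse bead arrays, per the labels' protocols. The authors deposited linear probe intensities with a detection p-value each, made with BeadStudio per the submitters' processing notes (no version is given). The deposited series matrix was used as an alternative. Here 27 arrays of 9 groups were fitted together. The 3 arrays of V6.5 were left out because 2 of them were dim. Background correction and quantile normalization used neqc of limma 3.58.1 in R 4.3.3, with an offset of 16, which gave log2 values from the authors' intensities. Probes were kept where at least 3 of the 27 arrays had a detection p under 0.05, and the brightest probe stood for a gene. Of 25697 probes 23978 had 1 gene symbol and 1719 had none listed. Group means were compared with limma (lmFit and eBayes, 18 residual degrees of freedom), with Benjamini-Hochberg adjustment over 10503 genes. All adjusted p-values come from that fit. It was also run on simulated log2 values with independent scatter and few changed genes, which did not test the normalization.

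Named genes were the 15 largest rises and falls past the threshold whose arrays did not overlap and which were detected on all arrays of the brighter group, provisional symbols aside. To these came 13 fixed genes, among them the factor genes, and, from 32 gene lists (641 of 888 entries measured), members changed at least 2-fold or up to 4 in each direction with the smallest adjusted p. List members outside this rule, such as Esrrb, Dppa4, Krt18, Cldn6, Pcna, Sox17, Gata4, Hnf4a and Spc24, were chosen after their values were seen. The genes and lists were chosen with earlier results of these data known. Same-numbered replicates did not deviate together (correlations of -0.0229 to 0.155), so no pairing was used. The number of arrays limits the precision. Alternatives covered the arrays fitted, the scaling, the background, the source table, the filter, the probe choice, array weights and each replicate left out. Sequences came from RefSeq tables.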

Additional observations from a re-analysis of the deposited data

Results flagged for a closer look

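These 11 genes stood above MEFs at some times and below at others and differed between times, by the test between the 3 times of untreated OKMS6 across all genes (limma, adjusted p). Each value is the log2 difference from MEFs at 10, 24 and 48 h, and the MEF arrays are shared. Apart from Asz1 and Pes1 they were below MEFs at 10 h and above at 48 h. Des, the muscle filament desmin, stood at -0.63, 0.01 and 1.64 (1.5e-11). Eno2, a neuronal enolase, stood at -0.86, -0.19 and 0.98 (1.12e-10). Pfkm, a glycolytic kinase, stood at -0.25, 0.33 and 1.53 (1.33e-12). The interferon-induced genes Igtp and Ifitm1 stood at -0.45, 0.21 and 1.62 (8.72e-13) and at -0.60, -0.32 and 1.28 (1.88e-10). Trp53inp1, a p53 target, stood at -0.47, -0.02 and 0.77 (4.02e-07). Ndufb5, of respiratory complex I, stood at -0.60, -0.17 and 0.72 (6.02e-05). Pcolce, a collagen processing enhancer, stood at -0.53, 0.13 and 0.61 (3.36e-05). Gas6, a ligand of the receptor Axl, stood at -0.21, -0.45 and 0.38 (0.000174). Asz1, a germline gene, and Pes1, of ribosome biogenesis, went from higher to lower, at 0.55, -0.64 and -0.61 (1.88e-05) and at 0.37, 0.46 and -0.86 (8.02e-09).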

How the results depend on the processing

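Of the comparisons of 161 named genes with their alternatives, 3959 kept their side of the threshold, and those called kept their direction. Further, 16 calls were lost, 18 were gained and 14 results changed sign with a call in either fit. Genes picked for large changes are among the 161. Over all genes, 6493 of the 7605 calls were also called with median scaling, and 5821 of these kept their direction. Median scaling moved the most counts, to 1865 genes lower, 3568 at least 2-fold higher and 835 at least 2-fold lower. It adds the same offset to MEF arrays that were dimmer before scaling. A linear scaling before the offset, chosen after seeing the data, moved the median of all genes the other way, to -0.14, with 3253 higher and 4583 lower. It shared 6731 calls with the reported fit, all in the same direction. Calls that were higher made up 54.25% in the reported fit, 75.84% with median scaling and 41.51% with linear scaling. The count between times fell to 2125 with all 30 arrays and to 2972 with the series matrix, and the cause was not tested. Among the named genes, the sign changed under median scaling for Actb (0.62), Bmi1 (0.024), Cdkn2a (0.00117), Eno2 (0.85), Gas6 (0.92), Kdm6b (0.063), Ndufb5 (0.99), Pes1 (1.00), Rnf2 (0.020) and Spc24 (1.87). With the mean of a gene's probes it changed for Actb (0.26), Spc24 (0.61) and Trp53inp1 (-0.35), and with all 30 arrays for Cdkn2a (0.080). With 1 replicate left out in turn, calls ranged from 7158 to 7568 for OKMS6 against MEFs, 3895 to 4108 higher, 3254 to 3476 lower, 1715 to 1756 at least 2-fold higher and 1563 to 1593 at least 2-fold lower. They ranged from 6815 to 7181 at 10 h, 6947 to 7324 at 24 h, 6743 to 7117 at 48 h, 6128 to 6895 against R1 and 4142 to 4587 between times. With the replicate number as a block 7605 genes were called, 7569 of them shared with the fit without it, and replicates share only a number. Genes near background have a bound and no fold, and the number of arrays limits precision.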
